A study of Mus musculus with 6 samples.

Results

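The 7 genes described here, Saa3, Hp, Serpina3n, Lcn2, Cp, Steap4 and Timp1, encode proteins of the acute phase and wound response. They were listed by name, out of 32371 genes in the count table, and were selected on their fold changes between Ezh2-Y726D and GFP, the large fall of Saa3 above all, as measured in the same libraries. Their normalized read counts and fold changes are therefore given as a description without a test. The libraries came from CD90.2-positive, viable cells sorted from dissociated retinas of adult C57BL/6J mice of both sexes. All mice had received an intravitreal AAV2 injection, followed after 2 weeks by optic nerve crush (ONC), and cells were collected 3 days after the ONC. In 3 libraries the virus was AAV2-GFP (control), and in 3 libraries it was AAV2-Ezh2-Y726D, which carries a catalytically dead form of the histone methyltransferase Ezh2. No uninjured or uninjected retina was part of these libraries, AAV2 can also enter retinal cells other than retinal ganglion cells (RGCs), and whether a library held cells of 1 mouse or of several is not given in the sources used here. Differences between libraries of a group may thus be technical in part. Errors given below describe these libraries only, SDs as their spread and SEs as estimated by a fit over all genes tested.

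The acute phase response is the rapid change in secreted proteins that follows infection or injury. It is best known from the liver, where interleukin-6, acting through Stat3, and interleukin-1, acting through NF-kappaB and C/EBP factors, raise the transcription of plasma proteins. In the injured retina and brain, several of the same genes are transcribed locally, Lcn2 and Serpina3n being widely used marks of reactive glia. Of the 7 proteins, 6 are secreted, whereas Steap4 is a membrane reductase of iron and copper, so that the group is not one of secreted proteins alone.

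Total counts ran from 9333244 to 23782520 per library. The ribosomal RNA gene CT010467.1 took 50.9% and 52.2% of the counts in GFP libraries 2 and 3 and between 2.55% and 16.1% in the other 4, which left between 4460732 and 22024582 counts for all other genes. Values below are CPM, reads counted on a gene relative to all counted reads of the library, with library sizes scaled by the trimmed mean of M values (TMM). Ezh2, the overexpressed gene, had 22.7, 23.9 and 26.4 CPM in the GFP libraries and 65.2, 65.6 and 65.2 CPM in the Ezh2-Y726D libraries (log2 fold change 1.46, SE 0.06), as the labels would have it. The cells were labeled as RGCs, and all 11 RGC markers examined were detected, with a summed level of 494 to 507 CPM in GFP and 469 to 507 CPM in Ezh2-Y726D libraries. Müller glia markers, the largest signal among the marker lists, summed to between 11200 and 12480 CPM. The libraries therefore held RNA of glia and other retinal cells beside that of RGCs.

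All 7 genes passed the filter on low counts, and the fitted log2 fold change of each was below 0 in the Ezh2-Y726D libraries with TMM scaling. The fall was 4.89-fold for Saa3, 3.97-fold for Hp and 1.60-fold for Steap4, and it was 1.42-fold for Lcn2, 1.37-fold for Timp1, and 1.08-fold for both Serpina3n and Cp. Of the 7, 3 were among the differentially expressed genes (DEGs) that were lower by more than 1.5-fold with an adjusted P under 0.05, a class that held 5.50% of the 18138 genes tested, and none was among the higher DEGs, which held 2.52%. The Ezh2-Y726D libraries all lay below the GFP libraries for 6 of the 7, a pattern seen in that direction for 18.9% and in the other for 19.7% of all genes tested. Because the genes were picked with this contrast in view, nothing is read from either count. The median log2 fold change was -0.50 over the 7 and 0.00 over all genes tested. In sorted bulk samples, fewer cells of a type and less RNA per cell cannot be told apart.

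**Figure D1:**
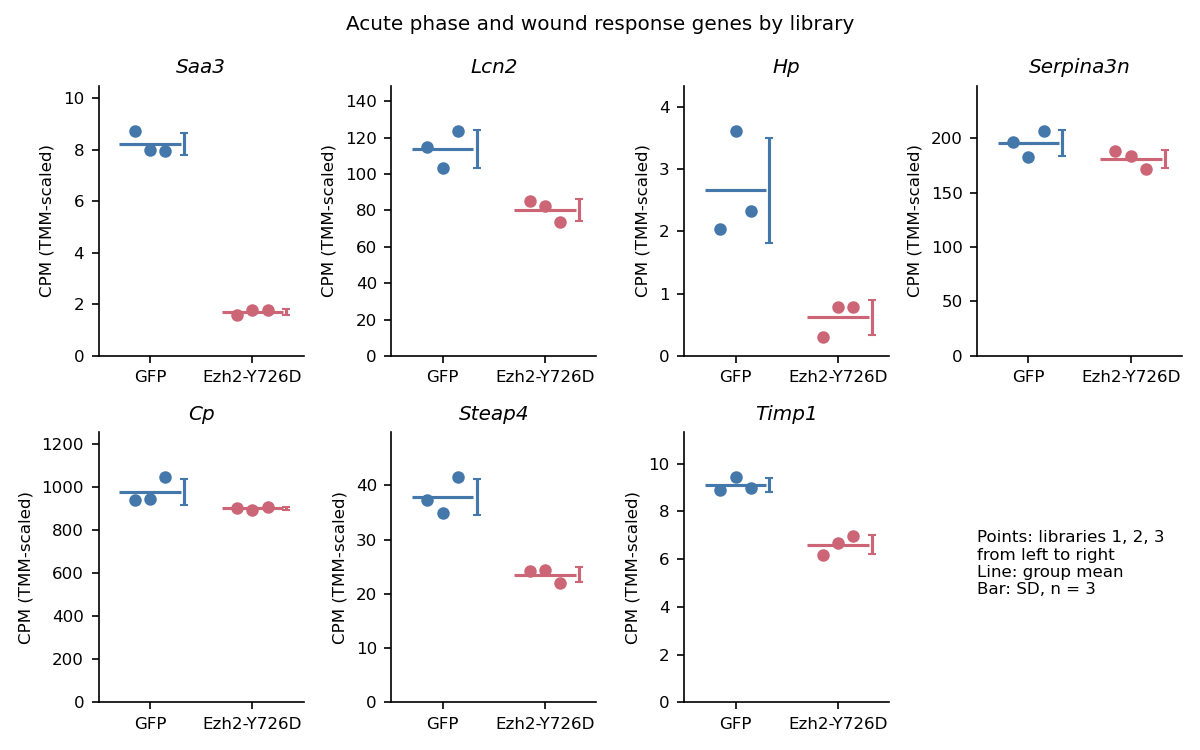
Normalized read counts (CPM, TMM-scaled, linear axis from 0) of the 7 genes in every library, GFP in blue and Ezh2-Y726D in red, with the group mean as a line and the SD (n = 3) as a bar. The groups are far apart for Saa3 (7.96 to 8.73 against 1.58 to 1.80 CPM), close for Cp, and overlapping for Serpina3n.

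The regulatory sequence of these genes is shown first, because C/EBP, STAT and NF-kappaB sites are the textbook route by which acute phase genes are induced. RefSeq promoters on GRCm38.p6 were found for 6 of the 7 genes, and the 250 bases before each start were searched on both strands for the STAT motif TTCNNNGAA, the C/EBP motif TTNNGCAA (TTGCNNAA on the other strand) and the kappaB motif. These motifs occurred in 7.02%, 9.56% and 3.90% of all 32851 promoter windows of this length. In the sequences below, written from 5′ to 3′ on the strand of the gene, capitals mark a match, and no match overlapped another. Saa3 and Steap4 are shown at length as the genes past both thresholds that had a promoter, at chr7:46715707-46715926 (minus strand) and chr5:7960222-7960402 (plus strand). Lcn2 and Cp are shown only around their match, at chr2:32387938-32387965 (minus strand) and chr3:19957169-19957196 (plus strand, before the second RefSeq start), positions that lie inside the longer gene models of GENCODE vM21.
Saa3: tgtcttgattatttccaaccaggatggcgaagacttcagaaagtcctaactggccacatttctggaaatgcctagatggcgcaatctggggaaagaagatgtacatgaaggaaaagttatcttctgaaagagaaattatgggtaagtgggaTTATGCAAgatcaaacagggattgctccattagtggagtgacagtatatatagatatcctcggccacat
Steap4: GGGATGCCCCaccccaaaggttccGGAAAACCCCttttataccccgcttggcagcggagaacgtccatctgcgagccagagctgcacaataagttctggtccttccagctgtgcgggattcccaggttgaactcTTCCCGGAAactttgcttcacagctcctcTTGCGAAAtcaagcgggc
Lcn2: gcccttcctgTTGCTCAAccttgcacag
Cp: ttagttactcTTTTGCAAcattaaattg

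The promoter of Saa3 held 1 C/EBP match, TTATGCAA, from 99 to 92 bases before the start. The match of Lcn2, TTGCTCAA, began 216 bases before its start, and that of Cp, TTTTGCAA, 70 bases before its second start. Steap4 was the only one of these genes with all 3 motifs in the window, a STAT match, TTCCCGGAA, from 116 to 108 bases before the start, a C/EBP match, TTGCGAAA, from 87 to 80, and kappaB matches that began 250 and 226 bases before the start. The windows of Serpina3n and Timp1 and that of the first start of Cp held none of these letters. Saa3, with the largest difference between the groups, and Cp, with one of the smallest, thus each had a single C/EBP match.

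Saa3 encodes serum amyloid A3, a lipid-binding acute phase protein that is made mainly outside the liver, by macrophages and epithelia among others. The gene, ENSMUSG00000040026, lies at chr7:46711998-46715700 on the minus strand. Saa3 had 8.73, 7.997 and 7.96 CPM in the 3 GFP libraries and 1.58, 1.76 and 1.80 CPM in the 3 Ezh2-Y726D libraries. Each library stood close to the others of its group, and the gap between the nearest GFP and Ezh2-Y726D libraries was 74.9% of the GFP mean. The mean fell from 8.23 ± 0.44 CPM to 1.71 ± 0.12 CPM (SD, n = 3 in each group), which is 20.4% of the GFP level (log2 fold change -2.29, SE 0.15). Counted from the lowest log2 fold change, Saa3 ranked 16 among the 18138 genes tested, and Hp ranked 26. These levels rest on 249, 62 and 48 counts in GFP and 42, 36 and 53 counts in Ezh2-Y726D libraries.

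The other serum amyloid genes gave little to compare. Saa1 and Saa2, the forms that the liver releases into plasma, had at most 3 counts in every library, and Saa4 was not found among the identifiers with a symbol. As Saa3 shares sequence with these copies, counts on it are uncertain to the extent that reads could be assigned to more than 1 copy.

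Hp encodes haptoglobin, the plasma protein that binds free haemoglobin. The gene, ENSMUSG00000031722, lies at chr8:109575128-109579172 on the minus strand. Its level was 2.03, 3.61 and 2.32 CPM in GFP libraries and 0.301, 0.784 and 0.780 CPM in Ezh2-Y726D libraries. The groups did not overlap, but GFP library 2 and Ezh2-Y726D library 1 stood apart from the others of their groups, and Hp was the most variable of the 7 genes within both groups (coefficient of variation 31.6% and 44.7%). The mean fell from 2.66 ± 0.84 CPM to 0.621 ± 0.278 CPM (SD, n = 3), 25.2% of the GFP level (log2 fold change -1.99, SE 0.31). Few counts stood behind these values, as the libraries held 58, 28 and 14 counts of Hp in GFP and 8, 16 and 23 counts in Ezh2-Y726D. With single libraries left out, the log2 fold change ranged from -2.29 to -1.64.

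Serpina3n encodes a secreted inhibitor of serine proteases such as granzyme B and cathepsin G, and it is strongly induced in reactive astrocytes. It lies at chr12:104406729-104414329 on the plus strand (ENSMUSG00000021091). Its level was 197, 182 and 206 CPM in GFP libraries and 188, 183 and 172 CPM in Ezh2-Y726D libraries. The groups overlapped, as GFP library 2 was below Ezh2-Y726D libraries 1 and 2. The means of 195 ± 12.1 CPM and 181 ± 8.16 CPM (SD, n = 3) differed by about the spread within the groups (log2 fold change -0.11, SE 0.04). Serpina3n is thus the only one of the 7 whose libraries did not separate by group.

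Lcn2 encodes lipocalin-2, which withholds iron from bacteria by binding their siderophores and is released by glia and leukocytes after injury. The gene, ENSMUSG00000026822, lies at chr2:32384633-32388252 on the minus strand. Lcn2 had 115, 103 and 124 CPM in GFP libraries and 85.0, 82.5 and 73.6 CPM in Ezh2-Y726D libraries. Every Ezh2-Y726D library lay below every GFP library, with 16.0% of the GFP mean between the nearest pair. The mean fell from 114 ± 10.3 CPM to 80.4 ± 5.98 CPM (SD, n = 3), 70.6% of the GFP level (log2 fold change -0.50, SE 0.06).

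Cp encodes ceruloplasmin, a copper-binding ferroxidase that lets iron leave cells and that exists in a plasma form and in a membrane-anchored glial form. It lies at chr3:19957054-20009145 on the plus strand (ENSMUSG00000003617), and 1.13% of its exonic bases overlap Hps3 on the other strand. Its level was 938, 942 and 1044 CPM in GFP libraries and 904, 893 and 907 CPM in Ezh2-Y726D libraries. The groups did not overlap, but GFP library 3 stood above the other 5, and the gap between the nearest libraries was only 3.25% of the GFP mean. The means were 975 ± 60.2 CPM and 901 ± 6.88 CPM (SD, n = 3; log2 fold change -0.11, SE 0.04), and without GFP library 3 the log2 fold change was -0.06.

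Steap4 encodes a membrane reductase of iron and copper that is induced by interleukin-6 and other inflammatory signals. The gene, ENSMUSG00000012428, lies at chr5:7960457-7982213 on the plus strand. Steap4 had 37.4, 35.0 and 41.5 CPM in GFP libraries and 24.2, 24.5 and 22.0 CPM in Ezh2-Y726D libraries. The nearest libraries of the 2 groups were separated by 27.7% of the GFP mean. The mean fell from 37.9 ± 3.29 CPM to 23.6 ± 1.38 CPM (SD, n = 3), 62.4% of the GFP level (log2 fold change -0.68, SE 0.07). Steap4 was the gene just inside the fold change threshold, at 1.60-fold, and Lcn2 the gene just outside it, at 1.42-fold.

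Timp1 encodes a secreted inhibitor of matrix metalloproteinases that rises in injured tissue. It lies at chrX:20870166-20874735 on the plus strand (ENSMUSG00000001131). Timp1 had 8.88, 9.42 and 8.96 CPM in GFP libraries and 6.16, 6.67 and 6.95 CPM in Ezh2-Y726D libraries. Here the libraries of each group were close together and the groups did not overlap. The mean fell from 9.08 ± 0.29 CPM to 6.59 ± 0.40 CPM (SD, n = 3), 73.2% of the GFP level (log2 fold change -0.45, SE 0.11), from 54 to 253 counts per library.

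**Figure D2:**
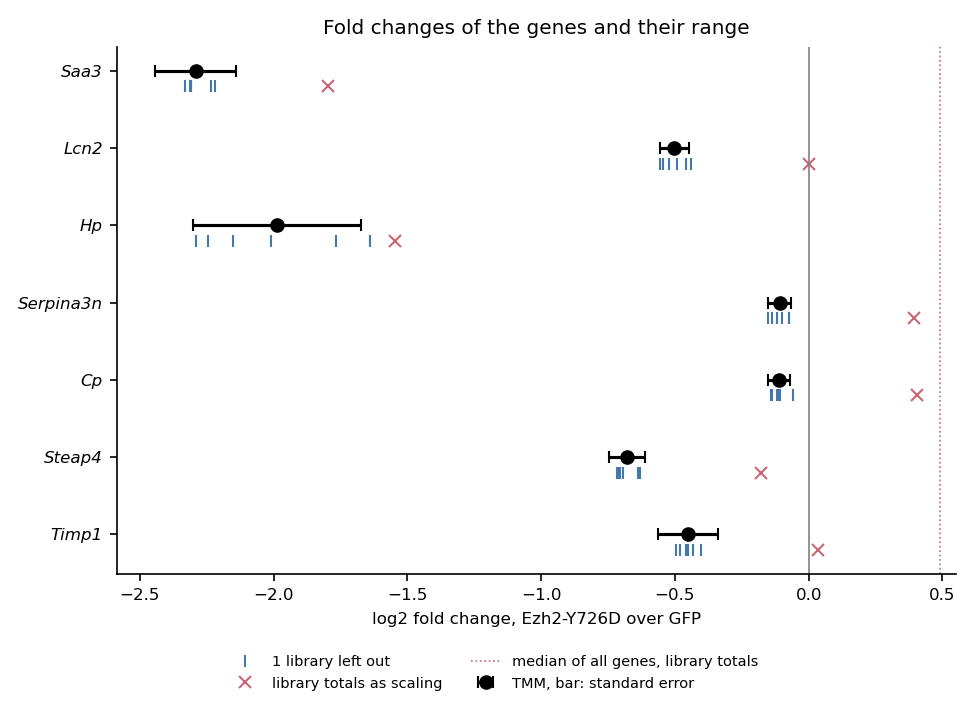
Log2 fold change of each gene (Ezh2-Y726D over GFP) with its SE as a bar, the values with each library left out in turn as ticks, and the value with library totals in place of TMM as a cross. The crosses shift to the right together with the median of all genes (dotted line at 0.49), and all 7 stay to the left of that line. A change of scaling moves all genes nearly alike, so the crosses are no separate support.

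The direction of the smaller differences depended on how libraries were scaled. With library totals, which include CT010467.1, the median over all genes of the log2 fold change moved from 0.00 to 0.49, Saa3, Hp and Steap4 stayed below 0 (-1.80, -1.55 and -0.18), and Lcn2, Timp1, Serpina3n and Cp came to lie at or above it (0.00, 0.03, 0.39 and 0.41). Relative to the median of all genes in the same fit, the 7 values with library totals were -2.29 for Saa3, -2.04 for Hp, -0.67 for Steap4, -0.49 for Lcn2, -0.46 for Timp1, -0.10 for Serpina3n and -0.09 for Cp. With totals that leave out CT010467.1, the median was -0.02, and the fitted values were -0.52 for Lcn2 and -0.13 for Cp, close to those with TMM. Each gene that was tested lay below the median of all genes in every setting run. A change of scaling moves all genes nearly alike, and the 7 genes were chosen on these falls. Their place below the median is thus a description and no support. Using GFP library 1, with 6.59% of its counts on CT010467.1, as the only control, the log2 fold changes of Saa3, Hp and Steap4 were -2.35, -1.72 and -0.67. That fit takes its spread from the Ezh2-Y726D libraries alone and assumes that the lone GFP library varies like them, so that it is given for its values only.

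The 7 genes differed widely in abundance. Per kilobase of exons, the level in GFP libraries was 101.9 ± 6.29 CPM for Cp and 94.6 ± 5.87 CPM for Serpina3n (SD, n = 3), above 99.2% and 99.1% of the genes tested, and these neighbours overlapped across the GFP libraries. Lcn2 followed with 43.4 ± 3.93 CPM per kilobase. Steap4 had 12.02 ± 1.04 CPM per kilobase and Timp1 10.2 ± 0.33, and the lowest levels were those of Saa3 (3.16 ± 0.17) and Hp (1.65 ± 0.52). The order was Cp, Serpina3n, Lcn2, Steap4, Timp1, Saa3 and Hp in 5 of the 6 libraries, and Timp1 exceeded Steap4 in Ezh2-Y726D library 3. In Ezh2-Y726D libraries, Steap4 and Timp1 had 7.47 ± 0.44 and 7.42 ± 0.45 CPM per kilobase and their libraries overlapped. Saa3 was above 45.7% of the genes tested in GFP libraries and above 17.1% in Ezh2-Y726D libraries, and Hp above 32.1% and 9.60%. The pair with the largest falls was thus also the pair with the lowest levels.

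**Figure D3:**
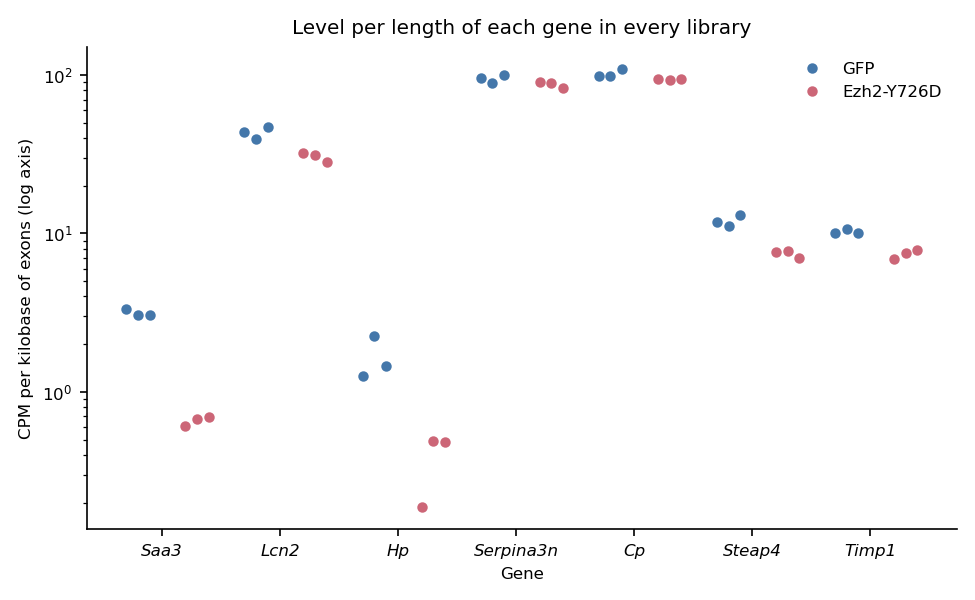
Level per kilobase of exons (CPM per kilobase, log axis) of each gene in every library, GFP in blue and Ezh2-Y726D in red. Cp and Serpina3n lie near 100 CPM per kilobase in all libraries, whereas Saa3 and Hp are the lowest and differ most between the groups.

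Together the 7 genes took 1307, 1284 and 1435 CPM in GFP libraries and 1208, 1193 and 1184 CPM in Ezh2-Y726D libraries, and Cp alone made up 71.8% to 76.6% of these sums. Without Cp, the sums were 368, 342 and 391 CPM in GFP and 305, 299.5 and 277 CPM in Ezh2-Y726D libraries. Within the groups, the deviations of Lcn2 from its group means ran closely with those of Serpina3n (Pearson's r = 0.997 over the 6 libraries) and Steap4 (r = 0.967). Those of Hp ran with Timp1 (r = 0.925), while Lcn2 and Timp1 deviated in opposite directions (r = -0.799). These values describe 6 libraries, and in each library all genes share its depth and scaling factor, so no P value is given.

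For each of the 7 genes, the 3 genes with the most similar profile over the 6 libraries were found among genes with a mean of at least 5 CPM. Since group means dominate such profiles, r of the deviations from the group means is given in brackets. The profile of Saa3 was closest to those of Ciita (r = 0.999 [0.932]), the master regulator of MHC class II genes, H2-K1, an MHC class I gene (r = 0.999 [0.799]), and Tpst1 (r = 0.999 [0.791]). Hp was closest to Csf1r (r = 0.996 [0.978]), the receptor that keeps macrophages and microglia alive, Fcgr3 (r = 0.996 [0.984]), an Fc receptor of phagocytes, and Bmf (r = 0.9955 [0.978]). Timp1 was closest to Ptprc (r = 0.999 [0.994]), which encodes the leukocyte antigen CD45, Fgr (r = 0.999 [0.994]) and Sp100 (r = 0.998 [0.966]).

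Lcn2 was closest to Stk19 (r = 0.9965 [0.978]), Il1r1 (r = 0.995 [0.973]), the signaling receptor of interleukin-1, and Mvp (r = 0.9925 [0.943]). Steap4 was closest to Cd24a (r = 0.9995 [0.997]), Smad3 (r = 0.997 [0.958]) and Adgre5 (r = 0.997 [0.953]). For Cp the nearest profiles were those of Arl3 (r = 0.993 [0.985]), Socs6 (r = 0.989 [0.977]) and Enpp1 (r = 0.988 [0.973]). For Serpina3n they included those of Ankrd33 (r = 0.993 [0.995]) and Panx1 (r = 0.990 [0.983]). With so many genes and 6 libraries, high r values arise for many genes, and these are descriptions.

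Markers of other cell types were examined in the same libraries. In the list of monocytes and macrophages, 8 of 10 genes were lower DEGs and none was a higher DEG (edgeR's quasi-likelihood test, Benjamini-Hochberg adjusted). Their summed level was 724 to 799 CPM in GFP and 245 to 286 CPM in Ezh2-Y726D libraries, 0.353 times the GFP level. Without Lyz2, the sums were 253 to 276 CPM in GFP and 141 to 160 CPM in Ezh2-Y726D libraries, 0.583 times the GFP level. Lyz2, the lysozyme of myeloid cells, went from 506 to 118 CPM (log2 fold change -2.10), and Ms4a7 from 17.7 to 4.02 CPM (-2.03). Among neutrophil markers, S100a8, S100a9, Ly6g, Mpo, Retnlg and Cxcr2 had at most 3 counts in every library, and the only gene of the list that was tested, Csf3r, fell from 19.2 to 11.8 CPM (log2 fold change -0.68). None of 8 endothelial and 6 tested pigment epithelium markers was a DEG, whereas 2 of 7 pericyte markers, Kcnj8 (-0.65) and Abcc9 (-0.68), were lower DEGs. The call of Kcnj8 was lost after the counts were thinned to the depth of the shallowest library (-0.37) and without GFP library 1 (-0.52) or Ezh2-Y726D library 1 (-0.58), and that of Abcc9 without GFP library 3 (-0.58) or with GFP library 1 as the only control (-0.57).

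Of 9 microglia markers none was a lower DEG, and Sall1 was a higher DEG (log2 fold change 0.61), a call lost with DESeq2 (0.56), after thinning (0.52), and without GFP library 1 (0.39), Ezh2-Y726D library 1 (0.57) or Ezh2-Y726D library 3 (0.57). The microglia list summed to 439 to 491 CPM in GFP and 347 to 408 CPM in Ezh2-Y726D libraries. Of 10 Müller glia markers, Apoe was a lower DEG (-0.64), and the list summed to 11890 to 12480 CPM in GFP and 11200 to 11610 CPM in Ezh2-Y726D libraries. Without Apoe, the sums were 8823 to 9280 CPM in GFP and 9236 to 9623 CPM in Ezh2-Y726D libraries. That is 1.035 times the GFP level, with overlapping groups. Of 5 astrocyte markers tested, S100b (-0.62) and Gja1 (-0.61) were lower DEGs, and neither was called without GFP library 3 (-0.58 and -0.49) or without Ezh2-Y726D library 3 (-0.50 and -0.59). Gja1 also lost its call with DESeq2 (-0.62), after thinning (-0.70), and without GFP library 1 (-0.62) or Ezh2-Y726D library 1 (-0.60), and S100b with GFP library 1 as the only control (-0.57). None of the 11 RGC markers was a DEG, but Isl1, at -0.58, was just short of the fold change threshold, and it was called without GFP library 3 (-0.60) or Ezh2-Y726D library 2 (-0.60) or 3 (-0.61), with the replicate number as a block (-0.59), after thinning (-0.59), with totals that leave out CT010467.1 (-0.60) or with GFP library 1 as the only control (-0.61).

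Levels of the 7 genes relative to these sums were computed after the data were seen. Single genes carried 2 of these sums, Lyz2 with 65.8% of the monocyte and macrophage sum and Apoe with 25.5% of the Müller glia sum in GFP libraries, so that each ratio was also computed with each marker left out in turn. Per summed level of monocyte and macrophage markers, Saa3 was lower in Ezh2-Y726D libraries, with no overlap between the groups. It was at 0.589 times the GFP value, at 0.356 times without Lyz2 and at 0.709 times without Fn1. Hp was at 0.652 times, or 0.394 times without Lyz2, and its groups overlapped when Ccr2, Fn1 or Itgam was left out. The other 5 genes were higher on this scale, with ratios of 1.77 for Steap4, 2.01 for Lcn2, 2.06 for Timp1, 2.63 for Cp and 2.64 for Serpina3n. Without Lyz2 these ratios came down to 1.07 for Steap4, whose groups then overlapped, and to 1.22 for Lcn2, 1.24 for Timp1, 1.59 for Cp and 1.60 for Serpina3n. Without Fn1 they rose, and ran from 2.13 for Steap4 to 3.19 for Serpina3n.

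Per summed level of Müller glia markers, Saa3 (0.223), Hp (0.251), Steap4 (0.665), Lcn2 (0.756) and Timp1 (0.777) were lower without overlap, with or without Apoe. Cp (0.990) and Serpina3n (0.993) overlapped between the groups, but without Apoe, the only DEG of the list, both were lower without overlap (0.894 and 0.896). Per summed level of microglia markers, Saa3 (0.251), Hp (0.280) and Timp1 (0.879) were lower without overlap, Steap4 was at 0.754, and Lcn2, Cp and Serpina3n overlapped. Which cells transcribed each gene was not measured, and the part of a change in cell makeup in these differences was not tested.

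**Figure D4:**
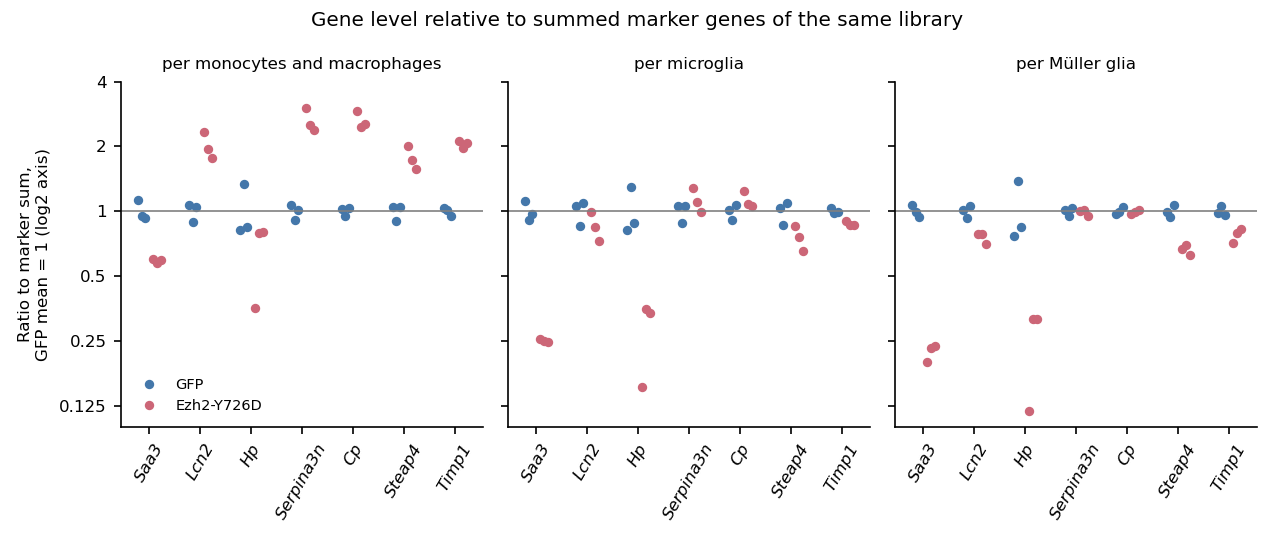
Level of each gene divided by the summed CPM of monocyte and macrophage, microglia or Müller glia markers of the same library, with the GFP mean set to 1 (log2 axis), GFP in blue and Ezh2-Y726D in red. Saa3 and Hp lie below the GFP libraries in all 3 panels, and Cp and Serpina3n lie near 1 per Müller glia markers, a position that rests on Apoe (0.894 and 0.896 without it).

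The 7 genes were then set beside other genes of the same pathways, listed from textbook knowledge with earlier results of these data known. In each list, DEGs were counted with the same test and adjustment over all genes tested, where 5.50% were lower and 2.52% higher DEGs.

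Among 28 acute phase plasma proteins, 24 were found in the table and 10 passed the filter, because liver proteins such as the orosomucoids Orm1, Orm2 and Orm3, Itih3, Itih4 and Serpina1a had at most 3 counts in every library. Of these 10, 2 were lower DEGs and 1 was a higher DEG, with a median log2 fold change of -0.28. Chil3, a chitinase-like protein secreted by macrophages, fell from 5.22 ± 0.75 to 1.41 ± 0.41 CPM (SD, n = 3; log2 fold change -1.91, SE 0.20). Lbp, which carries bacterial lipopolysaccharide to Cd14, fell from 1.07 to 0.370 CPM (-1.47, SE 0.36). Few counts stood behind it, 28, 7 and 8 in GFP and 7, 9 and 12 in Ezh2-Y726D libraries. The filter dropped Lbp after thinning and at 10 counts in every library. Ptx3, a pentraxin, was the higher DEG, with 2.02 and 2.75 CPM (log2 fold change 0.65, SE 0.23), although its groups overlapped. DESeq2 did not call it (0.57), and the call was also lost after thinning (0.39) and without GFP library 1 (0.30), Ezh2-Y726D library 1 (0.57) or Ezh2-Y726D library 3 (0.60). The protease inhibitors A2m (100 and 70.1 CPM, -0.49) and Serping1 (156 and 136 CPM, -0.20) did not pass the fold change threshold.

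Of the 10 listed relatives of Serpina3n, 4 were tested and 2 were lower DEGs. Serpina3g fell from 20.5 to 10.4 CPM (log2 fold change -0.92, SE 0.09), and Serpina3f from 4.42 to 2.06 CPM (-1.08, SE 0.18). Serpina3h had a log2 fold change of -0.36 (SE 0.33) and Serpina3i of -0.36 (SE 0.25), and both values were 0.08 and 0.07 with library totals, where the median of all genes was 0.49. Without GFP library 1 they were -0.04 and -0.63, and with the other single libraries left out they ranged from -0.51 (without GFP library 2) to -0.20 (without Ezh2-Y726D library 3) and from -0.49 (without Ezh2-Y726D library 1) to -0.16 (without Ezh2-Y726D library 3). Serpina3m had at most 3 counts in every library, and Serpina3a, Serpina3j and Serpina3k were not found. Serpina3n, with 195 CPM in GFP libraries, was by far the most counted of these close copies, among which reads can be assigned wrongly.

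Of 22 other genes of metal and haem handling, 20 were tested, 3 were lower DEGs and none was a higher DEG, with a median log2 fold change of -0.03. Slc11a1, the phagosomal iron exporter Nramp1, fell from 16.4 to 8.67 CPM (-0.96, SE 0.09), and Hmox1, which breaks down haem, from 12.5 to 7.77 CPM (-0.67, SE 0.10). Ftl1, the ferritin light chain, fell from 225 to 150 CPM (-0.59, SE 0.05), and it dropped below the fold change threshold with no filter on low counts (-0.57), with the replicate block (-0.58), and without GFP library 1 (-0.54), Ezh2-Y726D library 2 (-0.56) or Ezh2-Y726D library 3 (-0.58). The transferrin receptor Tfrc had 94.0 and 118 CPM (0.33), short of that threshold. The Steap relatives Steap1, Steap2 and Steap3 had log2 fold changes of 0.10, 0.13 and 0.16, and the ceruloplasmin relative Heph of -0.03, none of them a DEG.

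Timp1 was compared with 24 Timp, Mmp, Adam and related genes, of which 20 were tested. Mmp19 (2.94 to 1.58 CPM, log2 fold change -0.92, SE 0.21) and Mmp2 (4.38 to 2.64 CPM, -0.65, SE 0.17) were lower DEGs, and Mmp17 (10.1 to 16.4 CPM, 0.66, SE 0.09) was a higher DEG. The call of Mmp19 was lost without GFP library 1 (-0.80) and that of Mmp2 without GFP library 2 (-0.56) or with GFP library 1 as the only control (-0.51), whereas 5 genes of the list were called without Ezh2-Y726D library 3. Mmp9, the protease whose proform Timp1 binds, had 35.8 and 35.3 CPM (-0.07, SE 0.07; 0.05 without GFP library 1). The other inhibitors Timp2, Timp3 and Timp4 had log2 fold changes of -0.02, -0.13 and 0.35, and none was a DEG. The median of the list was -0.05.

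The list of receptors, partners and targets of the 7 proteins held 14 genes, of which 11 were tested and 4 were lower DEGs. Gzmb, the granzyme that Serpina3n inhibits, fell from 14.45 ± 2.10 to 4.43 ± 0.34 CPM (SD, n = 3; log2 fold change -1.70, SE 0.12). Tlr4 (9.60 to 5.93 CPM, -0.72, SE 0.12) and Tlr2 (23.3 to 14.5 CPM, -0.66, SE 0.08), which serum amyloid A can activate, also fell. Fpr2, another receptor of serum amyloid A, had 0.850 and 0.525 CPM (-0.99, SE 0.37). It is named after its values were seen, and its call was lost with DESeq2 (-0.84), with the replicate block (-0.93), and without GFP library 1 (-0.15), GFP library 3 (-1.04) or Ezh2-Y726D library 1 (-0.79), 2 (-1.05) or 3 (-1.13). Slc22a17, a receptor of lipocalin-2, was 121 CPM in GFP and 170 CPM in Ezh2-Y726D libraries (0.46, SE 0.05), short of the fold change threshold, and Cd63, through which Timp1 signals, had 62.9 and 57.1 CPM (-0.15). Cd163, the receptor that clears haptoglobin with its haemoglobin, had at most 3 counts in every library, as had Ctsg and Elane.

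Among 32 inducing cytokines, receptors and transcription factors, 29 were tested, 2 were lower DEGs and none was a higher DEG. At an adjusted P under 0.05 alone, 11 were lower and 3 higher, against 13.6% and 13.9% of all genes. Il6ra, the receptor of interleukin-6, fell from 9.29 to 5.08 CPM (log2 fold change -0.85, SE 0.12). Il1rn, the antagonist of the interleukin-1 receptor, fell from 3.71 to 2.40 CPM (-0.62, SE 0.21), a call lost with DESeq2 (-0.63), after thinning (-0.46), with GFP library 1 as the only control (-0.60), and without GFP library 1 (-0.64), GFP library 2 (-0.57), Ezh2-Y726D library 1 (-0.39) or Ezh2-Y726D library 2 (-0.61). None of the transcription factors of the list was a DEG. Stat3 had 217 and 197 CPM (-0.14), Cebpb 21.6 and 19.3 CPM (-0.16), Cebpd 156 and 186 CPM (0.24), Socs3, a target of Stat3, 60.5 and 65.1 CPM (0.10, or 0.05 without Ezh2-Y726D library 1), and Osmr, the oncostatin M receptor, 124 CPM in both groups (0.00). Il1b had 12.9 and 10.5 CPM (-0.20), with -0.45 without GFP library 1 and -0.05 without GFP library 2. Il1a went the other way, with 2.27 and 3.34 CPM (0.58, SE 0.18). Its groups did not overlap, and it was just short of the fold change threshold. The NF-kappaB genes Nfkb1 (-0.22), Rela (-0.24) and Nfkbia (-0.39) were lower without being DEGs. Il6, with 17, 2 and 1 counts in GFP and 10, 3 and 11 in Ezh2-Y726D libraries, was not tested.

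Reactive astrocyte genes, among which Lcn2, Serpina3n, Steap4, Timp1 and Cp are often counted, were examined without these members. None of 8 pan-reactive genes was a DEG (4 were lower and none higher at an adjusted P under 0.05 alone, against 13.6% and 13.9% of all genes), Gfap having 230 and 188 CPM (log2 fold change -0.29) and Vim 521 and 450 CPM (-0.21). Of 11 genes called A1, 5 were lower DEGs, among them the interferon-induced genes Iigp1 (59.2 to 35.0 CPM, -0.74) and Psmb8 (67.3 to 42.2 CPM, -0.67), and Srgn (30.7 to 19.0 CPM, -0.69) and Ggta1 (13.6 to 8.14 CPM, -0.73). The fifth, Fbln5 (1.84 to 1.14 CPM, -0.82), lost its call with DESeq2 (-0.78) and without GFP library 1 (-0.59), GFP library 2 (-0.74), Ezh2-Y726D library 1 (-0.76) or Ezh2-Y726D library 2 (-0.79). Of 11 tested genes called A2, Cd109 (3.20 to 1.10 CPM, -1.45) and Emp1 (4.39 to 2.53 CPM, -0.85) were lower DEGs and Ptx3 was the higher one.

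**Figure D5:**
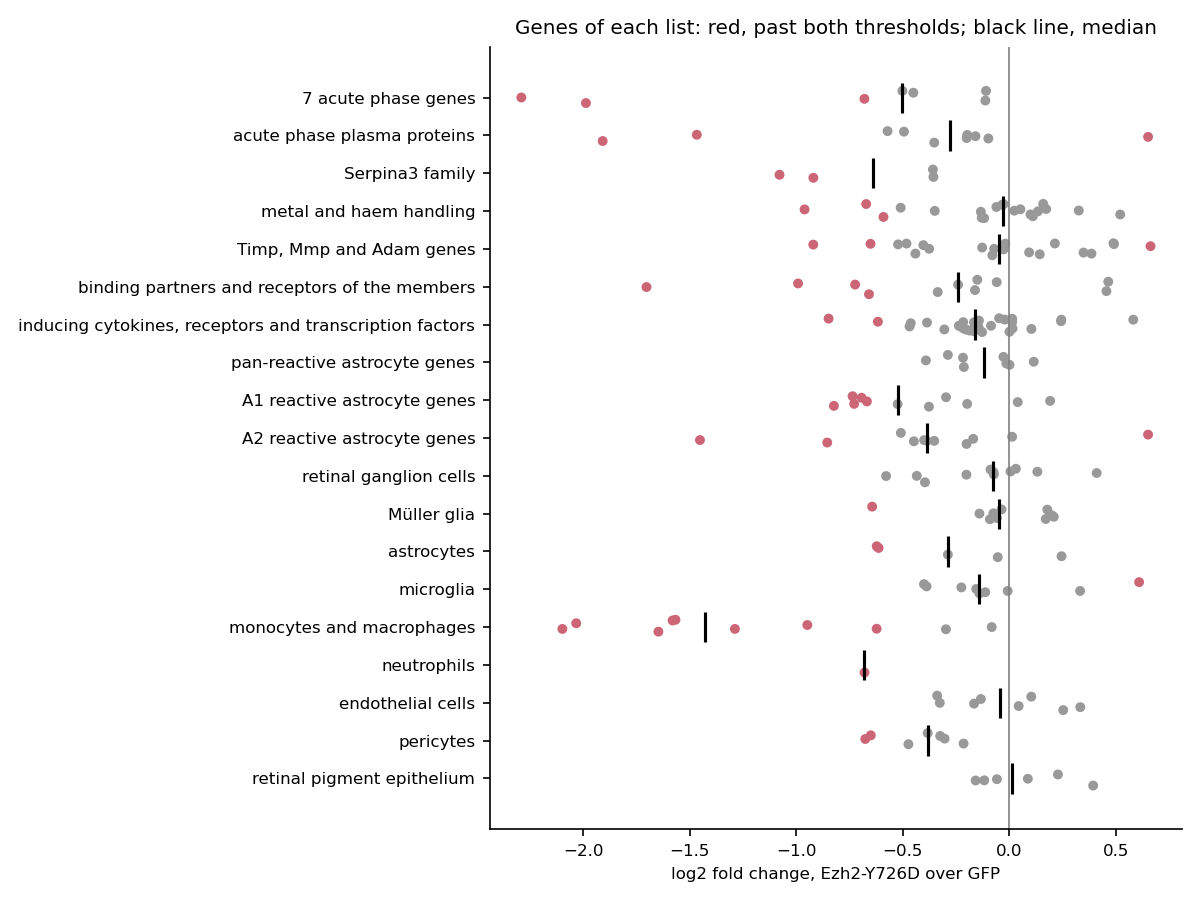
Log2 fold change (Ezh2-Y726D over GFP) of the 7 genes in the top row and of every tested gene of the pathway and cell marker lists below, with genes past both thresholds in red and the list's median as a black line. Monocyte and macrophage markers lie farthest to the left with a median of -1.43, and the medians of the metal, Timp and inducer lists are -0.03, -0.05 and -0.16, with genes on both sides of 0.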

How the data were processed

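Counts of reads per gene in 6 RNA-Seq libraries, 3 per group, were used as the authors deposited them, as whole numbers without normalization. Per the submitters' processing notes, STAR 2.7.0d and GRCm38 were used. The counting tool, the annotation and whether counting used the strand are not given in the sources used here, so that counts of overlapping genes and close copies are uncertain. The library kit was a stranded one for total RNA, and all columns were used. Symbols were found for 32325 of the 32371 identifiers. Coordinates and exon lengths are those of GENCODE vM21 (GRCm38), which gave a length for 18126 of the 18138 genes tested.

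Groups were compared in R 4.3.3 with the quasi-likelihood test of edgeR 4.0.16. TMM factors were 0.647 to 1.31, and genes passed the filterByExpr filter (10 counts, total of 15). P values were adjusted by Benjamini-Hochberg. The common biological coefficient of variation was 0.0442. DEGs differed by more than 1.5-fold at an adjusted P under 0.05, the thresholds of the study. The study reported fewer DEGs for this contrast than were found here, and its tool is not named in the sources used here. Alternatives were RLE size factors, library totals, either scaling without CT010467.1, DESeq2 1.42.0, other filters and thresholds, thinning to 4460732 counts, the replicate number as a block and each library left out. A single control library and ratios to marker sums, also with each marker left out, were added after the data were seen. Profiles were compared as Pearson's r of log2(CPM + 0.5). On simulated counts for 18138 genes, edgeR called 170 of 200 genes changed by a log2 fold change of 1 (85%) and 3 unchanged genes.

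The genes described and all gene and marker lists were chosen with earlier results of these data known. Named from each pathway list were up to 4 DEGs, the 2 lowest and 2 highest log2 fold changes among those with at least 1 CPM in the higher group, together with close relatives, partners and inducers of the 7 genes. Tfrc, A2m, Serping1, Gfap, Vim, Fpr2, Ggta1, Heph, Il1a, Nfkb1, Rela, Nfkbia and the named marker genes were added with their values in view. Some further results are not reported here.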

Additional observations from a re-analysis of the deposited data

How the results depend on the processing

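Low counts in libraries of both groups limit the precision for Hp and Saa3, and 3 libraries against 3 cannot give an exact permutation P below 0.1. The 1455 DEGs became 65 with library totals, but 1484 when CT010467.1 was removed from those totals, 4988 without a fold change threshold, 443 at a fold change over 2, and 1207 to 1404 with a library left out. DEGs numbered 1126 with DESeq2, 1134 at 10 counts in every library and 1077 after thinning. The 3 of the 7 genes past both thresholds became 1 with library totals, were again 3 with CT010467.1 removed, and became 6 without a fold change threshold, and stayed 3 with each library left out. Log2 fold changes with library totals were -1.80 for Saa3, 0.0012 for Lcn2, -1.55 for Hp, 0.39 for Serpina3n, 0.41 for Cp, -0.18 for Steap4 and 0.034 for Timp1, against a median of all genes of 0.49. After thinning they were -0.79 for Steap4 and -0.31 for Timp1, and Hp was dropped by the filter, as it was at 10 counts in every library. The shift with library totals came from CT010467.1, since without this 1 gene the median of all genes was -0.02. The cause of the shifts after thinning was not tested.

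With library totals no DEG was left (0) in the lists of acute phase proteins, Serpina3 family, metal handling, Timp and Mmp genes, binding partners, inducers, A1 genes and A2 genes, and 2 of the 8 were left among monocyte and macrophage markers. Without a fold change threshold their counts were 6 for acute phase proteins, 8 for metal handling, 13 for Timp and Mmp genes, 9 for binding partners, 14 for inducers, 4 for pan-reactive genes and 10 for A1 genes. At a fold change over 2 they were 1 for the Serpina3 family, 0 for metal handling, Timp and Mmp genes, inducers and A1 genes, 1 for binding partners and 1 for A2 genes. Acute phase proteins had 1 DEG after thinning. Inducers had 1 with DESeq2 and after thinning, and 1 to 3 with a library left out. Timp and Mmp genes had 3 to 5 with a library left out.

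As the median rose to 0.49 with library totals, genes that were below 0 with TMM came to lie above 0. Among them, all still below that median, were A2m (0.017, against -0.49 with TMM), Serping1 (0.30), Mmp9 (0.44), Cd63 (0.35), Stat3 (0.36), Cebpb (0.33), Il1b (0.26), Gfap (0.22), Vim (0.29), Serpina3h (0.081) and Serpina3i (0.074). With a library left out, Mmp9 ranged from -0.13 to 0.050, the latter without GFP library 1, and Il1b was at 0.011 with GFP library 1 as the only control. Osmr, at 0.0013 with TMM, was at 0.50 with library totals, near the median of all genes there. It was at -0.0017 with RLE size factors, -0.018 and -0.0026 when CT010467.1 was removed before scaling by totals or by TMM, -0.0018 with DESeq2, -0.0096 with GFP library 1 as the only control, and between -0.028 and 0.023 with a library left out. All other alternatives for the 7 genes moved their values by less than 1 SD between libraries.

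The replicate numbers were not taken as pairs. Deviations of same-numbered libraries from their group means correlated at 0.106, 0.0416 and 0.0306, not all above 0.1, although each library correlated best with its own number. With the replicate block, 1403 DEGs and 3 of the 7 genes were called, and the log2 fold change was -2.29 for Saa3 and -2.15 for Hp. Of the list genes named, Ftl1 (-0.58) and Fpr2 (-0.93) were no longer called, and of the markers named Isl1 (-0.59) was called in addition.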
